A study of Homo sapiens with 6 samples.

Results

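The genes described here are 65 measured members of the axon guidance families, out of 17687 genes on the array. They are the Eph receptors and their ephrin ligands, the semaphorins with their plexin and neuropilin receptors, the Slits with their Robo receptors, and the netrins NTN1 and NTN4 with the receptors DCC and UNC5A to UNC5D. A rule on gene symbols set the members, and each had 1 probe set. By role they were 8 ephrins, 13 Eph receptors, 19 semaphorins, 11 plexins and neuropilins, and 14 Slits, netrins and their receptors. EPHB2 and SEMA3B were not analysed here.

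The samples were A375 cells, an established human melanoma line, grown in serum-containing medium and transfected with a commercial negative control siRNA (siCon, 3 arrays) or with siRNA against ERK3 (siERK3, 3 arrays). RNA was taken 3 days later. ERK3, encoded by MAPK6, is an atypical mitogen-activated protein kinase. All 6 arrays come from this 1 line and both groups were transfected, so the controls carry siRNA and transfection reagent too. The siRNA itself differs between the groups, and other effects of its sequence cannot be told apart from the loss of ERK3.

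Guidance molecules were named for steering growing axons, and the same molecules act in vessels, epithelia and tumours. Ephrins sit on the surface of one cell and bind Eph receptor tyrosine kinases on the next, with signals passing into both cells, and the outcome is often repulsion or sorting of cells. Semaphorins signal through plexins, which act on small GTPases of the Ras and Rap families. The secreted class 3 semaphorins mostly need a neuropilin as co-receptor. Slits repel cells through Robo receptors, and netrins attract or repel through DCC and UNC5 receptors. Melanocytes descend from the neural crest, whose migration uses several of these systems.

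MAPK6 was examined first as the check of the knockdown. Its log2 values were 13.45, 13.55 and 13.62 on siCon 1 to 3 and 10.54, 10.32 and 10.67 on siERK3 1 to 3. The groups lay far apart, and the signal fell to 12.2% of the control signal (log2 change -3.03, 95% interval -3.36 to -2.71, adjusted p = 0.000133). An exact two-sided permutation test gave p = 0.1, which 3 against 3 arrays cannot go below. Here and below, changes are siERK3 minus siCon, and adjusted p-values come from limma over all 17687 genes.

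Array medians lay between 7.06 and 7.10. A background level was set on each array at the 95th percentile of its 612 negative control probe sets, and lay between 7.32 and 7.56. On the second principal component, which carried 23.9% of the variance, siCon 2 (-26.5) and siERK3 3 (-15.2) lay below 0. The other arrays lay above it (4.35 to 21.7), with siCon 1 the farthest at 21.7. Results are also given without siCon 2 and siERK3 3, although siCon 1 lay farther from 0 than siERK3 3. The line was checked by fixed markers. SOX10 and MITF, transcription factors of the melanocyte lineage, were above background on all 6 arrays, while the pigment cell genes MLANA, PMEL, TYR and TYRP1 were above it on 0. Separate cultures are not named in the labels, and the p-values therefore reflect only how far these arrays scatter, possibly for technical reasons. In bulk RNA, less transcript per cell and fewer expressing cells cannot be told apart.

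A375 cells gave signal for a limited part of the guidance repertoire. Of the 65 members, 20 were above background on all 6 arrays, 3 on some and 42 on none. The 20 were the semaphorins SEMA3A, SEMA3C, SEMA4B, SEMA6A, SEMA6B and SEMA7A; the receptors NRP1, NRP2, PLXNA1, PLXNB2 and PLXND1; EPHA2, EPHA3, EPHA7 and EPHB4 with EFNA1, EFNA5 and EFNB2; and ROBO1 and NTN4. SEMA4C, SEMA4D and EFNA3 were above it on some arrays. No Slit, no UNC5 receptor and no DCC signal exceeded background on any array, so ROBO1 was measured without a Slit transcript above background. At a stricter level, the 99th percentile of the negative controls, 8 members remained on all 6 arrays: SEMA3A, SEMA3C, SEMA7A, NRP1, NRP2, EPHA3, ROBO1 and NTN4.

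After ERK3 knockdown none of the 65 members passed limma's test with adjustment over all genes, where 0.956% of all genes were called (0.447% higher and 0.509% lower). Before adjustment, 16 members (24.6%) had a p under 0.05, against 13.5% of all genes. Of these, 10 were higher in siERK3 (background 6.98%) and 6 lower (background 6.50%). The 3 siERK3 values lay clear of the 3 siCon values for 16 members (24.6%), against 19.8% of all genes; 9 were higher (background 10.1%) and 7 lower (background 9.70%). Both descriptions held for 14 of the 65 members and for 2126 of all 17687 genes. The median change of the 65 members was -0.02, with 31 above 0 and 34 below, and the median over all genes was 0.00. The members' median absolute change was 0.18, and that of all genes was 0.16. Without siCon 2 and siERK3 3, 10 of the 65 members reached an unadjusted p under 0.05, against 11.9% of all genes, and 0 passed after adjustment.

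The absence of calls depended on the model. With limma's mean-variance trend and robust variance estimate, 4 members passed, all lower in siERK3: NRP2 (adjusted p = 0.00341), SEMA7A (0.0102), SEMA3C (0.0106) and SEMA5A (0.0112), the last below background on every array. That setting called 4.08% of all genes. When only genes above background on at least 3 arrays were tested, 3 of the 21 members left passed, namely SEMA7A (adjusted p = 0.0199) and NRP2 (0.0234), which were lower, and SEMA6B (0.0344), which was higher. That setting called 7.34% of the genes it tested. SEMA5A alone passed with quantile normalization, with array weights and with a filter at the 30th percentile of mean level. The share of all genes past the threshold in these settings is not given here. Before adjustment, 15 of 65, 16 of 65 and 15 of 42 members had a p under 0.05 there. The shares of all genes tested were 13.7%, 14.8% and 17.9%. With any 1 array left out, 0 members passed.

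**Figure D1:**
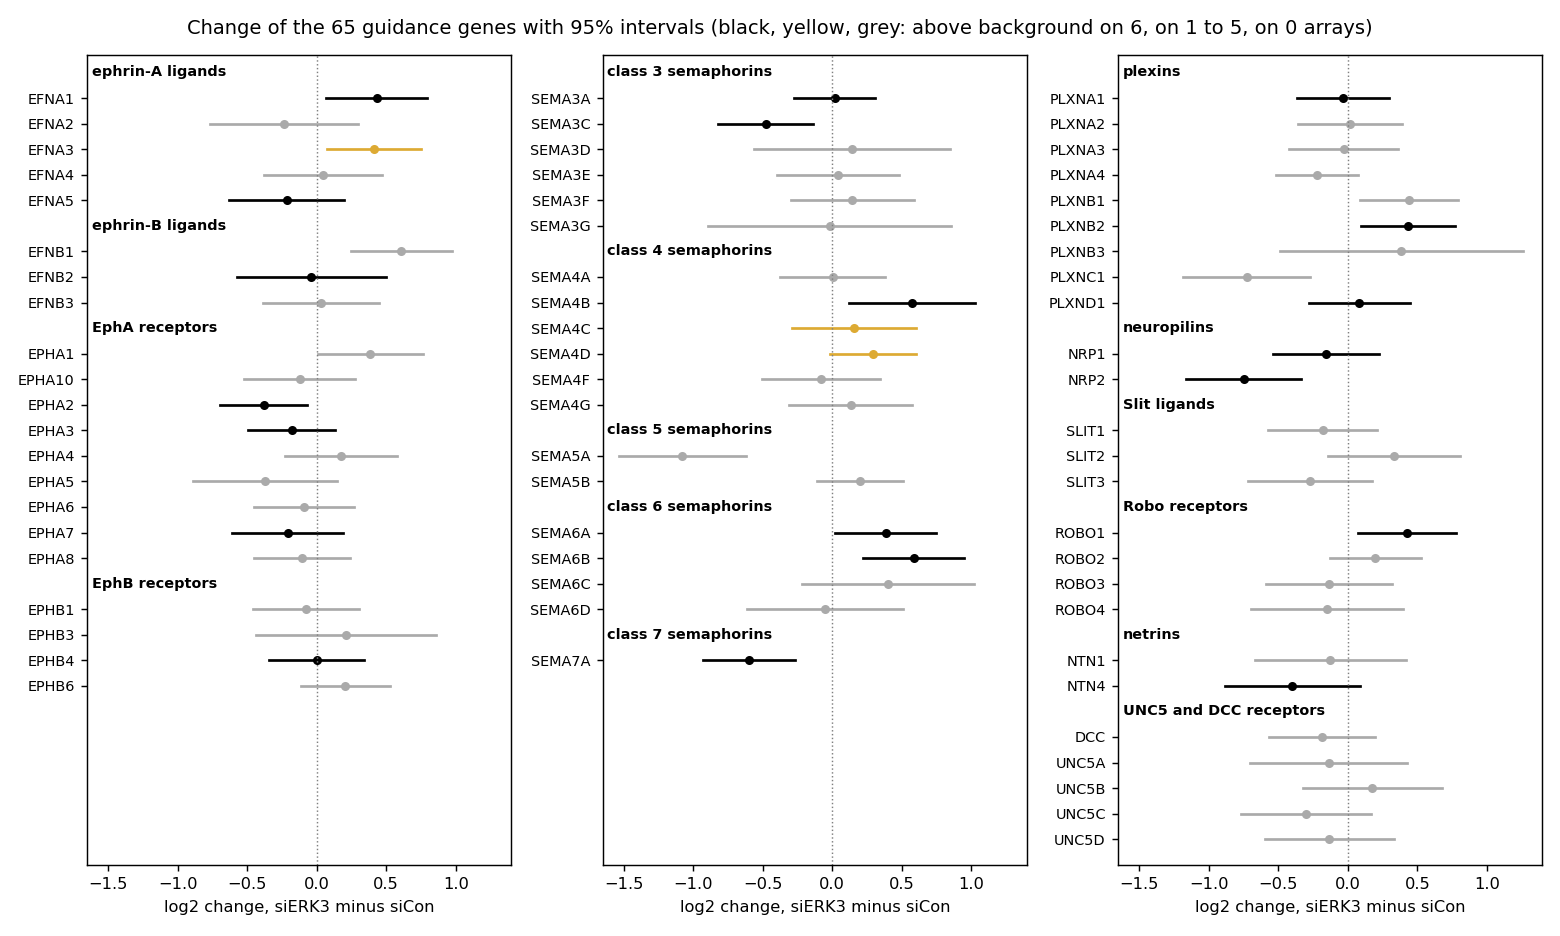
Log2 change (siERK3 minus siCon, x axis) of each of the 65 members by family, as the limma estimate (point) with its 95% interval (line), from 3 arrays per group. Black marks members above background on 6 arrays, yellow on 1 to 5, grey on 0. Grey estimates are differences between signals at background and have no size as a change. The estimates of the 20 black members run from -0.75 for NRP2 to 0.59 for SEMA6B.

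**Figure D2:**
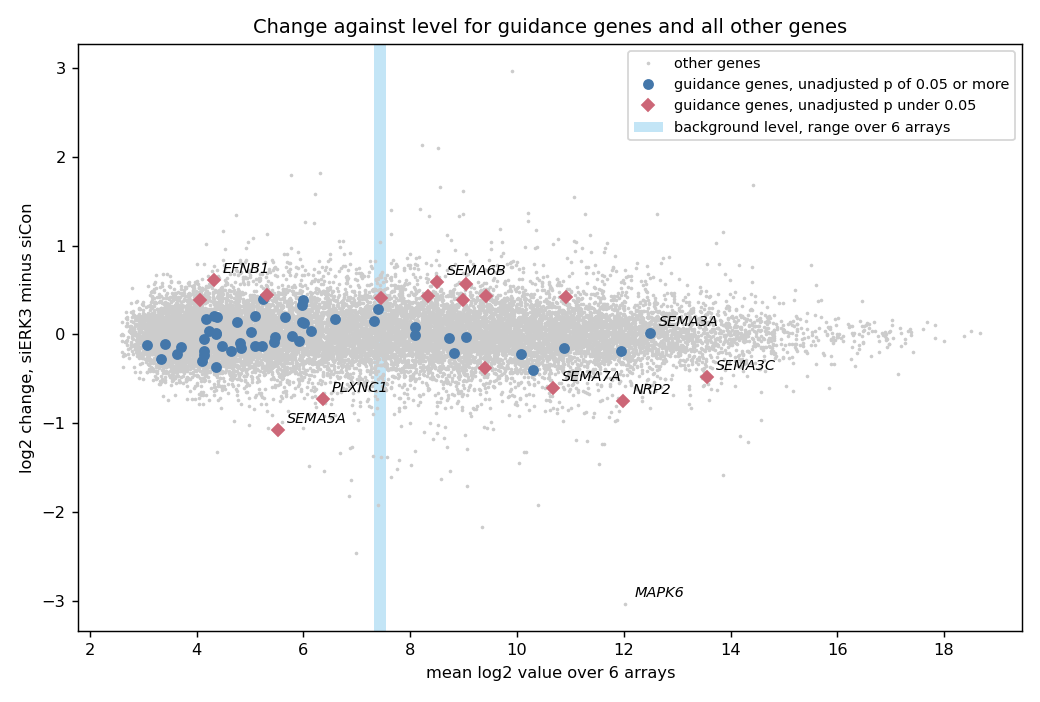
Log2 change (y axis) against the mean log2 value over 6 arrays (x axis) for the 65 members (blue circles, unadjusted p of 0.05 or more; red diamonds, under 0.05) and all other genes (grey dots). The blue band is the background level, 7.32 to 7.56 over the arrays. Members lie within the cloud of all genes, far from MAPK6 at -3.03, and 42 of them lie at or below the background level on every array.

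The upstream sequences of SEMA7A, NRP2 and SEMA3C are shown because, of the members above background on all 6 arrays with an entry in the RefSeq promoter table (GRCh38.p14), these had the smallest p. Each is the 250 bases before the annotated start, 5′ to 3′ on the gene's strand; SEMA7A and SEMA3C have 2 annotated starts each, and the one farthest upstream was taken. Capitals mark matches, on either strand, to the motifs searched: the AP-1 site TGANTCA, the E-box CACGTG, the ETS core CCGGAA, the GC box GGGCGG and the TATA box TATAAA.
SEMA7A promoter, chr15:74433959-74434208, minus strand: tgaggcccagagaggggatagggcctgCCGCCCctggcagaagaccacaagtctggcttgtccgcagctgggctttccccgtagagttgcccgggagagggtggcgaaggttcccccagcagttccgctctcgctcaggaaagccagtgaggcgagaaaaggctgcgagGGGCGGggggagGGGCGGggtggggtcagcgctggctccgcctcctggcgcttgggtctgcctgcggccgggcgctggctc
NRP2 promoter, chr2:205682251-205682500, plus strand: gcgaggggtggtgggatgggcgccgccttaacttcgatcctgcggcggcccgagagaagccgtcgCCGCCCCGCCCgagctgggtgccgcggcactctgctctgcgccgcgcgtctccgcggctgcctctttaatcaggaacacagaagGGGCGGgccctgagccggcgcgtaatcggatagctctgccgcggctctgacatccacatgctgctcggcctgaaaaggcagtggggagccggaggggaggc
SEMA3C promoter, chr7:80922390-80922639, minus strand: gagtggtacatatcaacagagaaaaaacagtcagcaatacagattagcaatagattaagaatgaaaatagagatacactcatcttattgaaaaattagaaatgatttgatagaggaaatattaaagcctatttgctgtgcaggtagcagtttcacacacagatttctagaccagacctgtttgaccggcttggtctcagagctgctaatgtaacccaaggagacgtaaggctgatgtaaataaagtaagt

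All capitals in these windows are GC boxes, 3 in SEMA7A and 3 in NRP2, of which 2 overlap in NRP2; SEMA3C has 0 matches to any of the motifs. The windows differ in base composition, with 70.0% G and C in SEMA7A and NRP2 and 36.4% in SEMA3C. Of 35116 promoter entries of the same length, 42.6% hold the GC box, 14.5% the ETS core, 10.7% the TATA box, 6.57% the AP-1 site and 6.34% the E-box. For 56 of the 65 members the table has 83 entries, and 58 of these hold the GC box, 5 the ETS core, 3 the TATA box, 1 the AP-1 site and 4 the E-box. The median share of G and C was 64.8% in the members' entries and 58% in all entries, and its part in these counts was not tested. The matches describe letters and not bound sites.

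Of the 19 semaphorins, 6 (31.6%) had an unadjusted p under 0.05, against 13.5% of all genes. They were 3 in each direction, against 6.98% higher and 6.50% lower, and the median change was 0.13. SEMA3C, a secreted class 3 ligand that guides neural crest cells into the heart and is made by several tumours, had log2 values of 13.86, 13.63 and 13.92 in siCon and 13.28, 13.51 and 13.18 in siERK3. Every siERK3 array was below every siCon array, with the nearest values on siCon 2 and siERK3 2. The difference was a log2 change of -0.48 (95% interval -0.82 to -0.14, adjusted p = 0.210). SEMA3A, the class 3 ligand that collapses growth cones, read 12.53, 12.50 and 12.40 in siCon and 12.48, 12.59 and 12.40 in siERK3. These values overlapped, with a log2 change of 0.02 (95% interval -0.27 to 0.31, adjusted p = 0.976). SEMA3D, SEMA3E, SEMA3F and SEMA3G were above background on 0 arrays, at means of 4.70 to 6.16.

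SEMA7A is the class 7 semaphorin, anchored to the membrane by a lipid and known to signal through the integrin beta-1 subunit and plexin C1. Its values were 10.91, 10.97 and 11.03 in siCon and 10.20, 10.59 and 10.32 in siERK3. The siCon arrays were close together and all 3 siERK3 arrays were lower, siERK3 1 the lowest. The difference was a log2 change of -0.60 (95% interval -0.93 to -0.27, adjusted p = 0.109). SEMA5A, a transmembrane semaphorin with thrombospondin repeats, had values of 5.66, 6.14 and 6.37 in siCon and 4.94, 4.80 and 5.20 in siERK3. The groups did not overlap and siERK3 was lower (adjusted p = 0.0520, and 0.222 without siCon 2 and siERK3 3), but all 6 values were below background, so no size of change is given. SEMA5B was also below background on all arrays, at 4.29 in siCon and 4.49 in siERK3.

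Classes 4 and 6 are transmembrane semaphorins. In class 4, 1 of 6 members (16.7%) had an unadjusted p under 0.05, and in class 6, 2 of 4 (50%), against 13.5% of all genes. Each of the 3 was higher in siERK3 (background 6.98%), and 0 passed after adjustment with the default model. SEMA6B, a class 6 ligand of plexin A receptors, read 8.51, 7.98 and 8.18 in siCon and 8.85, 8.76 and 8.81 in siERK3. The siERK3 arrays agreed closely and were all above siCon 1, the highest control (log2 change 0.59, 95% interval 0.22 to 0.95, adjusted p = 0.148). SEMA6A, its relative, read 8.95, 8.74 and 8.71 and 9.06, 9.04 and 9.46, with the groups just apart and siERK3 3 the highest (log2 change 0.38, 95% interval 0.02 to 0.75, adjusted p = 0.341). SEMA4B, a class 4 member, read 8.69, 8.92 and 8.65 and 8.88, 9.52 and 9.57. Here siERK3 1 lay among the controls and only siERK3 2 and siERK3 3 stood above them (log2 change 0.57, 95% interval 0.12 to 1.03, adjusted p = 0.261). SEMA4D, the ligand of plexin B1, was below background on all 3 siCon arrays and above it on 2 siERK3 arrays. Its values were 7.28, 7.24 and 7.24 in siCon and 7.66, 7.36 and 7.62 in siERK3, which did not overlap. The lower bound on the fold between the group means was 1.09, which carries no sampling error. The 95% interval of the log2 change, -0.02 to 0.60, included 0 (adjusted p = 0.403). SEMA6A had a change of 0.22 without siCon 2 and siERK3 3, against 0.38 with all arrays.

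**Figure D3:**
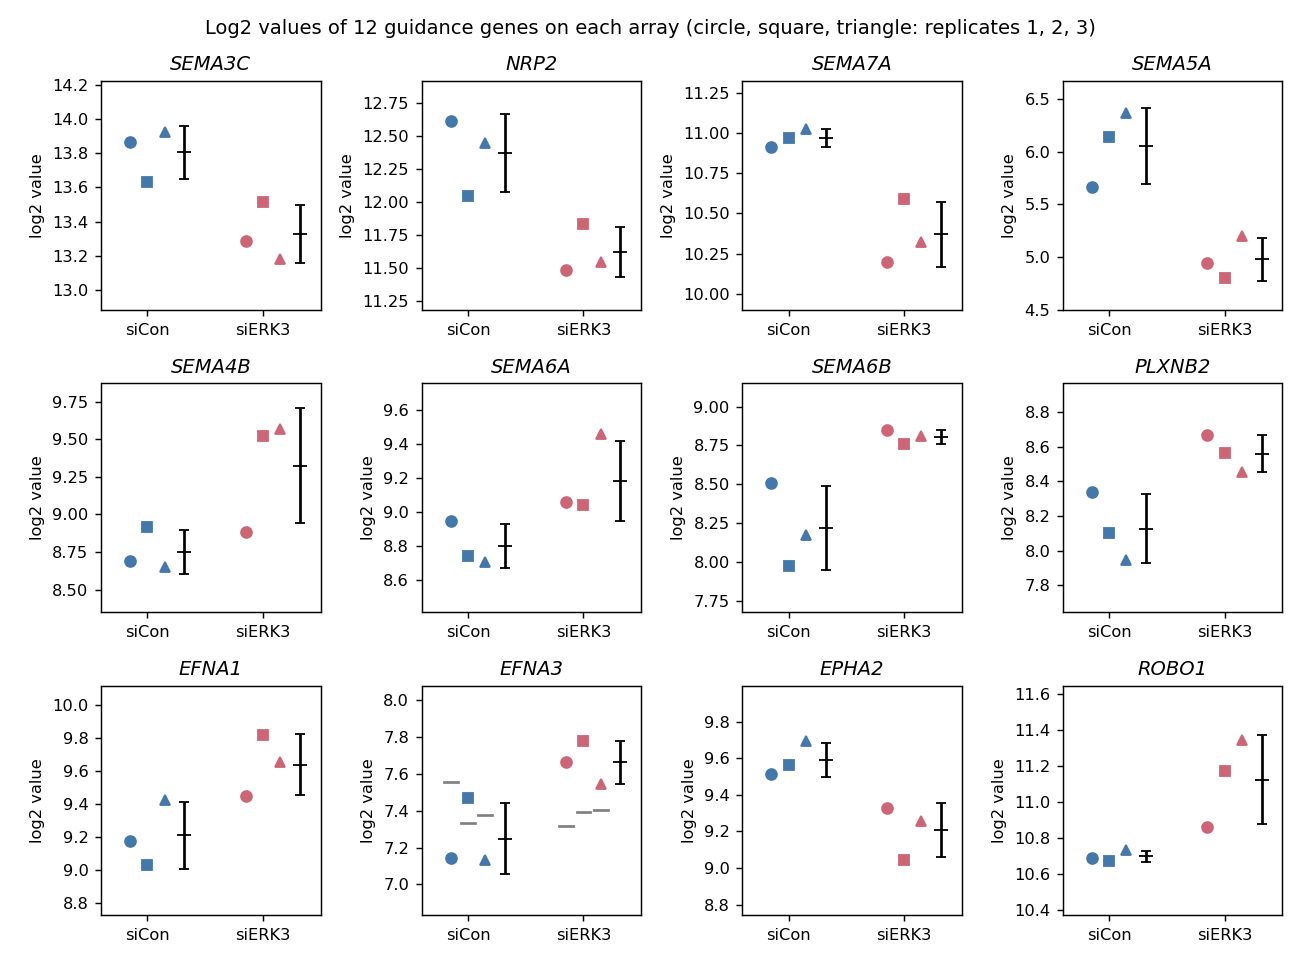
Log2 values (y axis, a separate range for each gene) of 12 members on the 3 siCon (blue) and 3 siERK3 (red) arrays, with the group mean and SD in black beside them. Grey dashes give each array's background level where it falls in the range. SEMA3C, NRP2, SEMA7A, SEMA5A and EPHA2 sit lower on all siERK3 arrays; the others sit higher, apart from siERK3 1 in SEMA4B.

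Of the 11 semaphorin receptors, 4 (36.4%, against 13.5% of all genes) had an unadjusted p under 0.05, 2 in each direction, and 2 of the 4, PLXNC1 and PLXNB1, were above background on 0 arrays. NRP2, the neuropilin that binds SEMA3C, SEMA3F and members of the VEGF family, had values of 12.62, 12.04 and 12.45 in siCon and 11.48, 11.83 and 11.55 in siERK3. The groups did not overlap, though siCon 2 and siERK3 2 came near each other. The difference was a log2 change of -0.75 (95% interval -1.16 to -0.34, adjusted p = 0.110), and without siCon 2 and siERK3 3 it was -0.87. NRP1, the other neuropilin and the receptor of SEMA3A, read 10.83, 10.97 and 11.08 in siCon and 11.02, 10.90 and 10.50 in siERK3, and these overlapped (log2 change -0.15, 95% interval -0.54 to 0.23, adjusted p = 0.762). Whether the changes of NRP1 and NRP2 differ from each other was not tested.

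Plexins carry the signal into the cell through a domain that acts on Ras-family GTPases. PLXNB2, a receptor of class 4 semaphorins and of angiogenin, read 8.34, 8.10 and 7.94 in siCon and 8.66, 8.56 and 8.45 in siERK3. All siERK3 values were higher, the nearest pair being siCon 1 and siERK3 3 (log2 change 0.43, 95% interval 0.10 to 0.77, adjusted p = 0.252). PLXNA1, a partner of the neuropilins, had a log2 change of -0.03 (95% interval -0.37 to 0.30, adjusted p = 0.953). PLXND1, the receptor of SEMA3E, had a log2 change of 0.08 (95% interval -0.28 to 0.44, adjusted p = 0.877). The groups overlapped for both. The other 6 plexins were above background on 0 arrays. Among these, PLXNC1, the SEMA7A receptor, was lower on all siERK3 arrays at 6.87, 7.03 and 6.28 in siCon and 5.85, 6.07 and 6.08 in siERK3 (adjusted p = 0.154), and PLXNB1 was higher at 5.25, 4.97 and 5.11 and 5.57, 5.33 and 5.74 (adjusted p = 0.267). PLXNA4 also had no overlap, at 3.74 in siCon and 3.52 in siERK3. Levels this far down give no fold.

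Several of these members are known ligand and receptor partners. For some of those with both sides above background, the log2 changes are set side by side here, ligand first and with no test of the pair. The pairs do not cover every known partner of these genes. SEMA3C and NRP2 had -0.48 and -0.75, while SEMA3A and NRP1 had 0.02 and -0.15. SEMA4B and PLXNB2 had 0.57 and 0.43. EFNA1 and EPHA2 had 0.43 and -0.38, EFNA5 and EPHA3 -0.22 and -0.18, and EFNB2 and EPHB4 -0.04 and -0.00. SEMA7A had -0.60, and ITGB1, the integrin beta-1 subunit, read 14.75 in siCon and 14.36 in siERK3 (-0.39, adjusted p = 0.274). None of these genes passed with all arrays and the default model, and the pairs include ones with both changes near 0 and ones of opposite sign.

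The 8 ephrins included 3 with an unadjusted p under 0.05 (37.5%, against 13.5% of all genes), all higher in siERK3 (background 6.98%), and their median change was 0.04. EFNA1, a lipid-anchored ligand of EphA receptors that is known as a target of inflammatory cytokines, read 9.18, 9.03 and 9.43 in siCon and 9.45, 9.82 and 9.66 in siERK3. The groups were separate by little, as siCon 3 nearly reached siERK3 1 (log2 change 0.43, 95% interval 0.06 to 0.79, adjusted p = 0.289). EFNA3 read 7.14, 7.47 and 7.13 and 7.66, 7.78 and 7.55, with siCon above background on 1 of 3 arrays and siERK3 on all (log2 change 0.41, 95% interval 0.08 to 0.75, adjusted p = 0.276). EFNA5 read 10.38, 10.02 and 10.18 and 9.73, 10.31 and 9.89 and its groups overlapped (log2 change -0.22, 95% interval -0.63 to 0.20, adjusted p = 0.677). EFNB2, the transmembrane ligand of EPHB4 that marks arterial vessels, read 9.25, 8.35 and 8.63 and 8.75, 8.44 and 8.91, also with overlap (log2 change -0.04, 95% interval -0.58 to 0.50, adjusted p = 0.967). EFNB1 was higher on all siERK3 arrays at 3.80, 4.07 and 4.18 and 4.56, 4.84 and 4.47 (adjusted p = 0.138), but far below background throughout. EFNA2, EFNA4 and EFNB3 were below it on every array too.

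The 13 Eph receptors had 2 members with an unadjusted p under 0.05 (15.4%, near the 13.5% of all genes) and a median change of -0.09. The groups did not overlap for 1 (7.69%, against 19.8% of all genes). That was EPHA2, a receptor often abundant in tumours and known to promote invasion without ligand. It read 9.52, 9.56 and 9.69 in siCon and 9.33, 9.04 and 9.26 in siERK3, lower on every siERK3 array, siERK3 2 the lowest (log2 change -0.38, 95% interval -0.70 to -0.07, adjusted p = 0.278). EPHA3, a receptor of EFNA5, read 12.11, 11.89 and 12.10 and 11.72, 11.89 and 11.95. Its groups overlapped, as siCon 2 lay below siERK3 3 (log2 change -0.18, 95% interval -0.50 to 0.13, adjusted p = 0.643). EPHA7 read 8.77, 9.09 and 8.95 and 8.54, 8.58 and 9.05, with siERK3 3 among the controls (log2 change -0.21, 95% interval -0.61 to 0.19, adjusted p = 0.676). EPHB4, the EFNB2 receptor, read 8.004, 8.33 and 7.92 and 8.15, 7.99 and 8.10 and its groups overlapped fully (log2 change -0.00, 95% interval -0.34 to 0.34, adjusted p = 0.999). The second member with an unadjusted p under 0.05 was EPHA1, which was below background on all arrays at 3.87 in siCon and 4.26 in siERK3, with overlap. The remaining 8 receptors (EPHA4, EPHA5, EPHA6, EPHA8, EPHA10, EPHB1, EPHB3 and EPHB6) were below background on every array and their groups overlapped.

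Of the 14 Slits, netrins and receptors, 1 (7.14%, against 13.5% of all genes) had an unadjusted p under 0.05. ROBO1, a Slit receptor of the immunoglobulin superfamily, read 10.69, 10.68 and 10.73 in siCon and 10.86, 11.17 and 11.35 in siERK3. The controls were nearly equal and each siERK3 array was higher, by least on siERK3 1 and by most on siERK3 3 (log2 change 0.43, 95% interval 0.08 to 0.78, adjusted p = 0.278). Without siCon 2 and siERK3 3 the change was 0.30. NTN4, a netrin related to laminin chains that is deposited in basement membranes, read 10.39, 10.46 and 10.67 and 10.01, 9.73 and 10.58. On siERK3 1 and siERK3 2 it was below all controls and on siERK3 3 among them (log2 change -0.40, 95% interval -0.88 to 0.09, adjusted p = 0.480); without siCon 2 and siERK3 3 the change was -0.65 (adjusted p = 0.305), and without siERK3 2 it was -0.21 (adjusted p = 0.780). The other 12, among them SLIT2 at 5.81 in siCon and 6.15 in siERK3 and NTN1 at 5.28 in siCon and 5.16 in siERK3, were below background on every array, with overlapping groups.

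**Figure D4:**
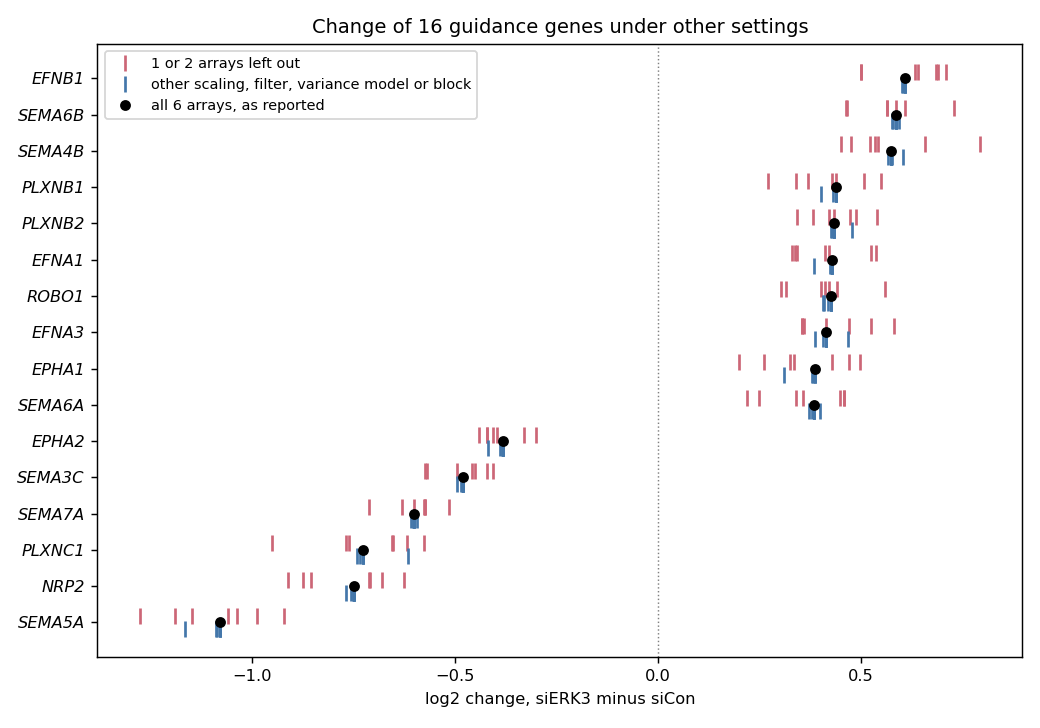
Log2 change (x axis) of the 16 members with an unadjusted p under 0.05 (y axis) with all 6 arrays (black), with 1 or 2 arrays left out (red) and with other scaling, filter, variance model or block (blue). All 16 keep their sign. For the 14 whose groups do not overlap, leaving arrays out could not turn it. NRP2 ranges from -0.91 to -0.62 and SEMA6A from 0.22 to 0.46.

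The machinery downstream of these receptors was described with 3 lists of genes that exclude the members. Among 31 measured transducers of Eph and ephrin signals, 0 passed after adjustment, 6 (19.4%, against 13.5% of all genes) had an unadjusted p under 0.05, 3 in each direction, and the median change was -0.04. ABL2, a kinase that remodels actin, read 11.24, 10.59 and 11.16 in siCon and 10.34, 10.19 and 10.22 in siERK3, lower on every siERK3 array (adjusted p = 0.121). CHN1, a Rac inhibitor that acts below EphA4, read 9.42, 9.39 and 9.58 and 9.95, 9.97 and 10.20, higher on every siERK3 array (adjusted p = 0.102). PIK3R1, a regulatory subunit of phosphoinositide 3-kinase, and NCK2, an adaptor, had changes of 0.68 and 0.55 (adjusted p = 0.194 and 0.148), and ANKS1B was below background on all arrays. Without siCon 2 and siERK3 3 the change of PIK3R1 was 0.45. These calls depended on the model too: among genes above background on at least 3 arrays ABL2, CHN1 and NCK2 passed (adjusted p = 0.0257, 0.0171 and 0.0326), and with the mean-variance trend ABL2 and CHN1 did (0.00819 and 0.0204).

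Among 38 measured transducers and co-receptors of plexins, 1 rose and 0 fell after adjustment; 6 (15.8%, near the 13.5% of all genes) had an unadjusted p under 0.05, 3 in each direction, and the median was 0.01. L1CAM, the adhesion molecule that joins NRP1 in the SEMA3A receptor, rose from 8.33, 7.99 and 8.20 to 9.98, 9.60 and 9.79, and the groups were far apart (log2 change 1.62, 95% interval 1.26 to 1.98, adjusted p = 0.00456). It passed with any 1 array left out, and had an adjusted p = 0.0966 without siCon 2 and siERK3 3 together. CDK5, a kinase that phosphorylates collapsin response mediators below SEMA3A, read 13.24, 13.13 and 13.12 and 13.74, 13.74 and 13.61, higher on every siERK3 array (adjusted p = 0.103). DPYSL5, one of those mediators, had a change of 0.42, MET, a receptor kinase that pairs with plexin B, of -0.39, and RRAS2, a GTPase of the R-Ras group, of -0.36; none passed (adjusted p = 0.289, 0.278 and 0.323). Without siCon 2 and siERK3 3 the change of DPYSL5 was 0.22. With the mean-variance trend CDK5 and ITGB1 passed (adjusted p = 0.00110 and 0.0151), and CDK5 also passed with either filter on level.

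Among 42 measured transducers and relatives of the Slit and netrin systems, 0 passed; 4 positive and 2 negative changes (14.3%, near the 13.5% of all genes) had an unadjusted p under 0.05, and the median was -0.04. MYO10, a myosin of filopodia that carries DCC, read 8.997, 9.10 and 9.38 in siCon and 8.63, 8.68 and 8.12 in siERK3, lower on every siERK3 array (adjusted p = 0.151). SDC1, a heparan sulfate proteoglycan, had a change of 0.78 with overlapping groups, and BCAR1, an adaptor of focal adhesions, of 0.47 (adjusted p = 0.251 and 0.273). SRGAP1, the GTPase activator that binds Robo, had a change of -0.45 and CAP2, an actin regulator, of 0.47 (adjusted p = 0.289 and 0.30). MYO10 passed with the mean-variance trend (adjusted p = 0.0376) and among genes above background on at least 3 arrays (0.0386). Without siCon 1 the change of CAP2 was 0.29.

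Endothelial (8 measured) and keratinocyte (6) markers were above background on 0 arrays. Neuronal markers (9) had SYT1 and NEFL above background on all 6 arrays, with 0 past the threshold and list means of 5.66 to 5.76 (siCon) and 5.55 to 5.68 (siERK3). The Schwann cell and neural crest list (6) had array means of 8.99 to 9.17 (siCon) and 9.22 to 9.43 (siERK3), with SOX10, S100B, ERBB3 and TFAP2A above background and 0 past the threshold; its part in the members' values was not tested. Leukocyte markers (7) had means of 7.98 to 8.12 and 7.74 to 7.91, with LYZ, CD68 and CD74 above background, 0 past the threshold and PTPRC below background; their part was not tested either. Of 7 fibroblast markers, 4 had changes above 0 and 3 below (median 0.16). COL1A2 and LUM were above background on all arrays, and LUM, which encodes lumican, fell (log2 change -0.83, 95% interval -1.16 to -0.49, adjusted p = 0.0441). With 1 array left out, LUM did not pass (adjusted p = 0.0825 to 0.157). PDGFRB of the same list, named after its values were seen, went the other way. It was below background on all siCon arrays (7.08, 6.79 and 6.86) and above it on all siERK3 arrays (7.48, 7.77 and 7.73). In siERK3 it was higher, with a lower bound of 1.18 on the fold between the group means (adjusted p = 0.0631). It passed in 4 alternatives, with adjusted p from 0.00862 to 0.295 over all of them. Of 6 melanocyte markers 0 passed. With the mean-variance trend, and among genes above background on at least 3 arrays, ERBB3 (higher) and LYZ and CD68 (lower) passed as well.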

How the data were processed

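Total RNA was profiled on Clariom S Pico human arrays with the WT PLUS kit and 1-colour biotin labelling, per the labels' protocols. The values used are the log2 values the authors deposited, 1 for each of 24351 probe sets and each array. That scale was inferred from their range. How the authors corrected background, summarised and normalized was not given in the sources used here, and a stretch of the scale would alter the changes given. The platform annotation gave 1 gene for 17709 probe sets and several for 0; the brightest probe set per gene left 17687 genes. All 65 members kept the RefSeq symbol of their Entrez identifier.

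The test was limma 3.58.1 under R 4.3.3, with lmFit, default eBayes and no covariate. P-values were adjusted by Benjamini-Hochberg across the 17687 genes, with a threshold of 0.05, no filter and no pseudocount. Intervals are those of the moderated fit (prior 4.77 degrees of freedom, median SE 0.16). The number of arrays limits the precision. Scripts were tested on simulated data. The table holds no detection calls, so the negative controls set the background. A gene below it on all arrays of a group has only a bound there, computed against the higher of the background and its own value on each array. Such a bound compares group means and carries no sampling error.

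The members and lists were chosen with earlier results of these data known. The naming rule took MAPK6, every member with an unadjusted p under 0.05, every member whose groups did not overlap and that was above background on at least 3 arrays, and the member with the highest mean in each family. From each pathway list it took members past the threshold and up to 5 others with the smallest p, and from each marker list those past the threshold or above background on all arrays. Other members, which the rule on symbols fixed, are named with levels or changes.

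Alternatives were quantile normalization, median subtraction, array weights, a mean-variance trend with robust variances, averaging of probe sets, filters at the 30th percentile of mean level and at background on at least 3 arrays, blocking on replicate number, leaving out each array or siCon 2 with siERK3 3, and the 99th percentile of the negative controls. Deviations from the group means of same-numbered arrays correlated at -0.12 to 0.05 over genes, so the numbers were not taken as pairs.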

Additional observations from a re-analysis of the deposited data

How the results depend on the processing

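The fall of MAPK6 kept its call under all 15 alternatives, and with 1 array left out its change ranged from -3.11 to -2.94. The count of members past the threshold, 0 with all arrays and the default model, was 1 with quantile normalization, 1 with array weights, 1 with the filter at the 30th percentile (42 members tested), 3 among genes above background on at least 3 arrays (21 members tested) and 4 with a mean-variance trend and robust eBayes. It was 0 with median subtraction, the mean of the probe sets, the replicate block and each array left out (0 to 0). Of the 65 members, 16 had an unadjusted p under 0.05, against 13.5% of all genes. With 1 array left out the count was 11 to 13, against 10.8% to 13.4% of all genes. Without siCon 2 and siERK3 3 it was 10, against 11.9%. The 16 members kept their sign in every alternative that tested them. For the 14 of these whose groups did not overlap, leaving arrays out could not turn the sign. Genes past the threshold numbered 169 in all, 365 above the 30th percentile, 615 above background on at least 3 arrays, 722 with the trend, 33 with the replicate block, 23 to 60 with 1 array left out and 7 without siCon 2 and siERK3 3. A filter tests fewer genes, and the model was fitted again on the genes left. The cause of these shifts was not tested. The numbers of the arrays were not taken as pairs, though so few arrays cannot settle whether they are. Under the block 16 members reached an unadjusted p under 0.05, against 11.9% of all genes. Members above background on all arrays numbered 20, and 8 at the 99th percentile of the negative controls.

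Changes near 0 turned sign without nearing the threshold. SEMA3A was -0.0067 with quantile normalization and -0.031 to 0.061 with 1 array left out. EPHB4 was 0.043 with array weights, 0.11 without siCon 2 and siERK3 3, and -0.084 to 0.12 with 1 array left out. EFNB2, PLXNA1 and PLXND1 ranged from -0.24 to 0.21, -0.15 to 0.028 and -0.059 to 0.19 with 1 array left out, and NRP1 was 0.0034 without siCon 2 and siERK3 3. Scaling did not move the median of all genes by more than 0.01. Signal near background limits the 42 members that no array showed above it.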
